A study of Mus musculus with 12 samples.

Results

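The genes of MHC class II presentation were followed through 12 RNA-seq libraries of sorted mouse cells. They were taken by symbol as 10 of the 21885 genes in the table: Ciita, Cd74, H2-Aa, H2-Ab1, H2-Eb1, H2-DMa, H2-DMb1, H2-DMb2, H2-Oa and H2-Ob. There were 4 libraries in each of 3 groups. P80R B-ALL was GFP-positive PAX5 P80R leukaemia (B-cell acute lymphoblastic leukaemia), sorted from primary recipients 1300, 1301, 1302 and 1308. Pax5 KO was common lymphoid progenitors and pre-pro-B cells of Pax5-/- fetal liver, and Pax5 WT was pro-B and pre-BI cells of Pax5+/+ fetal liver. The series compares leukaemias that arose with the PAX5 mutant with normal progenitors that lack or carry Pax5. Genotype, stage of differentiation and origin (transplant recipient or fetal liver) change together between the groups, so they cannot be told apart. The sources used here give neither the cell that first carried the mutant nor the promoter that drove it, and no ages or strains of the mice. Each leukaemia came from its own numbered recipient, but nothing says that libraries 1 to 4 of the fetal groups came from separate animals, so p-values there measure the spread between these libraries, which may be technical.

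Class II molecules present peptides from the endosome to CD4 T cells. Their alpha and beta chains (I-A from H2-Aa and H2-Ab1, I-E with the beta chain of H2-Eb1) assemble on the invariant chain, the product of Cd74, which fills the groove and carries them to the endosome. There cathepsins trim the invariant chain to a short fragment, H2-DM removes the fragment and edits the peptides, and H2-DO holds H2-DM back, mainly in B cells and some dendritic cells. Ciita, the class II transactivator, does not bind DNA itself but docks on a complex of RFX, CREB and NF-Y proteins at the X and Y boxes of these genes' promoters. In mice, class II is low or absent on early B-lineage progenitors and high on mature B cells, dendritic cells and activated macrophages.

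The 6 stretches that follow show that promoter layout in the members for which it was found, since the members' shared regulation runs through it. They are from RefSeq promoters (250 bases before to 50 after each start) on GRCm38.p6, written 5′ to 3′ on the gene's strand, with capitals for the 2 motifs searched, an X motif (GCAAC or AACNNATG) and a Y box (ATTGG). Both strands of each window were searched.
H2-Aa, chr17:34287859-34287916, minus strand: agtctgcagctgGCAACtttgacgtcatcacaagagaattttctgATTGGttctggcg
H2-Eb1, chr17:34305764-34305820, plus strand: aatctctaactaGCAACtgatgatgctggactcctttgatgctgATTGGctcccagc
H2-DMb1, chr17:34153087-34153142, plus strand: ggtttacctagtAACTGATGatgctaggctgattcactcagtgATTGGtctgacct
H2-DMb2, chr17:34145116-34145171, plus strand: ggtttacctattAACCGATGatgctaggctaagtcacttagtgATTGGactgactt
H2-Oa, chr17:34092291-34092348, plus strand: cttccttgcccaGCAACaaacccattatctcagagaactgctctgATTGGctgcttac
H2-Ob, chr17:34238806-34238860, plus strand: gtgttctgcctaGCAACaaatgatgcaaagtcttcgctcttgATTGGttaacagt
The motifs were chosen after these windows were seen, so their count is a description. An X motif followed by ATTGG after 15 to 35 bases was in 390 of 32851 promoters in the table (1.19%), and in 6 of the 7 members with an entry. In those 6 the bases between the motifs numbered 23 to 28, and ATTGG lay 43 to 90 bases before the start. Singly, GCAAC was in 35.2%, AACNNATG in 8.86% and ATTGG in 37.4% of all promoters. Neither of the 2 windows of H2-DMa held the ordered pair. Ciita, Cd74 and H2-Ab1 had no entry.

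The values are read counts that the authors had scaled by 1 factor per library, called scaled counts here, from 24914250 to 43513852 reads per library. Pax5 itself was at 847, 1146, 1316 and 255 in recipients 1300, 1301, 1302 and 1308, at 229.9 to 267 in Pax5 KO and at 6194 to 7315 in Pax5 WT, so Pax5 followed the labels of the fetal groups, though it was not at 0 in Pax5 KO. A gene's log2 value had a median SD of 0.467 in P80R B-ALL, 0.114 in Pax5 KO and 0.159 in Pax5 WT. Recipient 1308 stood apart: its rank correlations with the other leukaemias were 0.899 to 0.906, against 0.925 to 0.954 among those. It also had the highest summed level of several marker lists, given as CPM (counts scaled to the same total in each library). For plasmacytoid dendritic cells it was 3627, against 129 to 316 in the other recipients, 363 to 391 in Pax5 KO and 259 to 292 in Pax5 WT. Most of the Pax5 WT sum was Spib (206 to 247 CPM), so its place beside the other groups rests largely on that gene. The erythroid list summed to 28906 in recipient 1308, 1253 to 12702 in the other recipients, 633 to 706 in Pax5 KO and 583 to 786 in Pax5 WT. Nearly all of the fetal erythroid sums was Tfrc (627 to 700 CPM in Pax5 KO and 577 to 783 in Pax5 WT). The pro-B and pre-BI list summed to 2909 in recipient 1308, 4211 to 6550 in the other recipients, 1598 to 1693 in Pax5 KO and 8024 to 9068 in Pax5 WT, with 11 or 12 of its 12 genes detected in every library. The granulocyte and monocyte list summed to 6658 in recipient 1308, 215 to 4136 in the other recipients, 345 to 373 in Pax5 KO and 17.5 to 24.6 in Pax5 WT, and the T-cell list to 178 to 409 in the leukaemias, 81.6 to 85.0 in Pax5 KO and 12.5 to 17.0 in Pax5 WT. Most of the T-cell sum was Lck, at 154 to 382 CPM in the leukaemias. Lck was at 75.5 to 76.6 CPM in Pax5 KO and 11.0 to 14.9 in Pax5 WT. Cd3e was at 0.321, 1.40, 3.94 and 22.4 CPM in recipients 1300, 1301, 1302 and 1308. The progenitor list (CLP and pre-pro-B) summed to 1579 to 4609 in the leukaemias, 1729 to 1769 in Pax5 KO and 429.6 to 491 in Pax5 WT. Of the hepatocyte list, Alb, Apoa1, Ttr and Serpina1a were at 0 in all 12 libraries, and Trf was at 10927 to 22910.2 scaled counts in the leukaemias, 402 to 465 in Pax5 KO and 1.89 to 6.88 in Pax5 WT. For the class II presentation genes, results for the leukaemias are given with and without recipient 1308. For genes of other lists the difference without it is given where it moved by more than 0.5 on the log2 scale.

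Together the 10 genes took 0.0321%, 0.0266%, 0.0739% and 1.17% of the reads of recipients 1300, 1301, 1302 and 1308 (95% Wilson intervals 0.0314 to 0.0328, 0.0260 to 0.0272, 0.0728 to 0.0749 and 1.17 to 1.18%, for counting error only). They took 0.0161 to 0.0172% in Pax5 KO and 0.0116 to 0.0133% in Pax5 WT. Every leukaemia lay above every fetal library, and recipient 1308 lay far above the other leukaemias. In all 3 comparisons the groups were compared with limma on log2(scaled count + 1), over the 12200 genes with a scaled count of at least 10 in at least 4 libraries. All 10 genes passed that filter, and none passed it through only 1 group. Differences are log2 with their standard error (SE, n = 4 against 4), p-values are adjusted over all 12200 genes, and the threshold is 0.05.

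**Figure D1:**
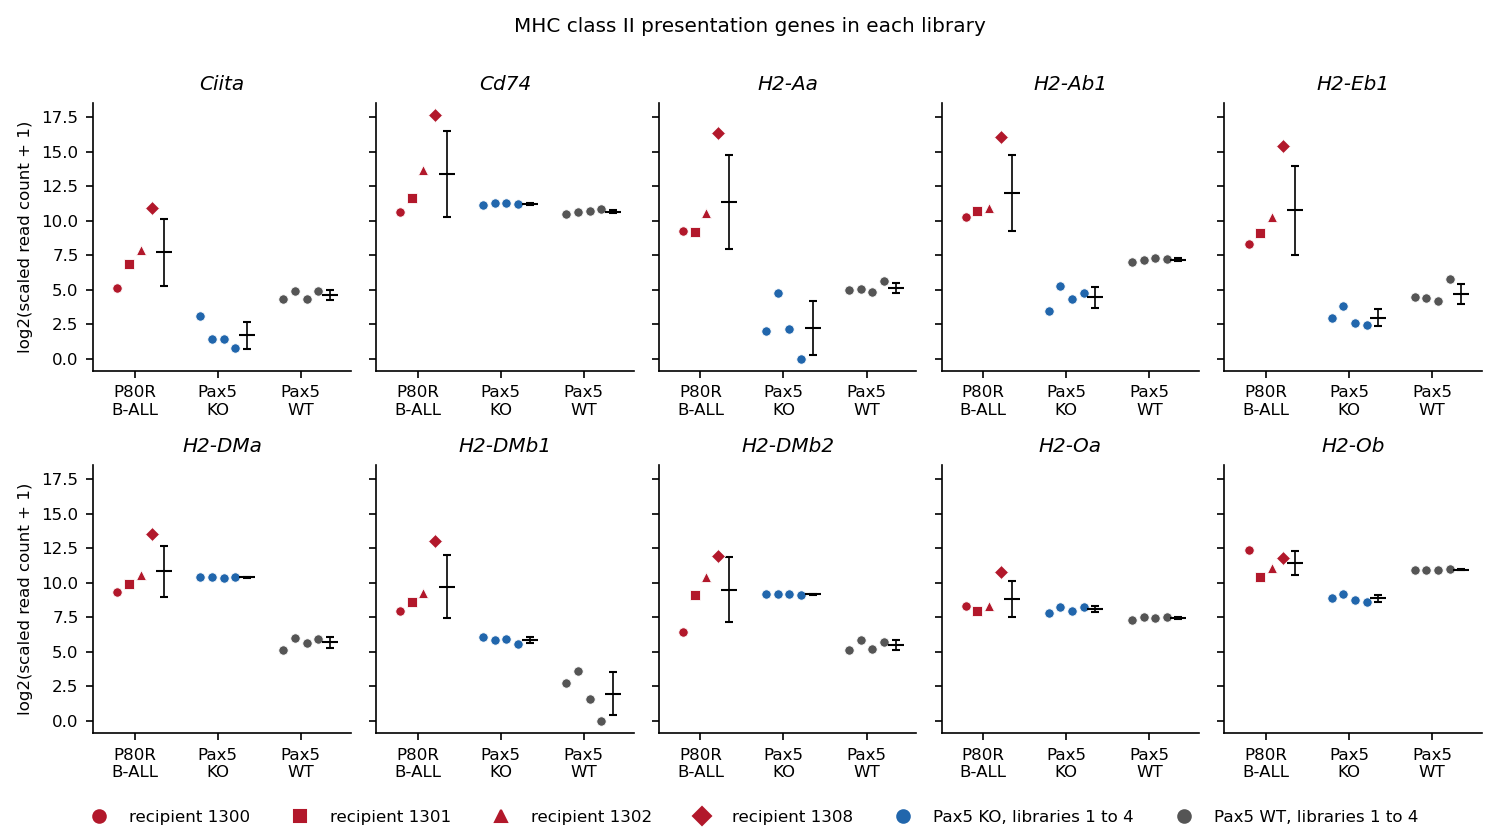
Each panel plots log2(scaled read count + 1) of 1 gene (y axis) for the 4 P80R B-ALL, 4 Pax5 KO and 4 Pax5 WT libraries (x axis), with the mean and SD of each group as a black bar. Recipient 1308 (diamonds) is the highest library for every gene except H2-Ob, where recipient 1300 is highest, and the Pax5 KO and Pax5 WT libraries do not overlap in any panel.

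Against Pax5 WT, class II presentation genes were higher in the leukaemias: 7 of the 10 rose and 0 fell. The 7 were Ciita, the I-A and I-E chain genes H2-Aa, H2-Ab1 and H2-Eb1, and the peptide editor genes H2-DMa, H2-DMb1 and H2-DMb2. Cd74 and the H2-DO genes H2-Oa and H2-Ob did not pass. Among all genes 39.9% passed, 21.0% as higher and 18.9% as lower. The median log2 difference of the 10 was 4.43, and that of all genes was -0.00. Without recipient 1308 8 of the 10 rose, H2-Oa being added, and the medians were 3.34 and -0.02. In that fit 2683 of the 12200 genes passed as higher and 2499 as lower. In 8 of the 10, each leukaemia was above each Pax5 WT library, which held for 21.2% of all genes.

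Against Pax5 KO, 6 of the 10 rose in the leukaemias and 0 fell: Ciita, H2-Aa, H2-Ab1, H2-Eb1, H2-DMb1 and H2-Ob. H2-DMa, H2-DMb2, H2-Oa and Cd74 did not pass. Among all genes 38.4% passed, 17.6% as higher and 20.8% as lower. The median of the 10 was 3.20, and that of all genes was -0.11. Without recipient 1308 6 rose and 0 fell, and the medians were 2.58 and -0.14. In that fit 2361 of the 12200 genes passed as higher and 2954 as lower. The 6 that passed were also those in which each leukaemia was above each Pax5 KO library, which held for 19.5% of all genes. Both leukaemia comparisons use the same 4 leukaemia libraries, so they are not independent of each other.

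Between the fetal groups, the genes split: H2-DMa, H2-DMb1, H2-DMb2, H2-Oa and Cd74 were higher in Pax5 KO, and Ciita, H2-Aa, H2-Ab1, H2-Eb1 and H2-Ob were lower. All 10 passed, 5 in each direction, where 64.8% of all genes passed, 35.7% as higher and 29.1% as lower. With all 12 libraries in the fit, Cd74, H2-Aa, H2-Ab1, H2-Eb1 and H2-Oa did not pass (limma adjusted p = 0.731, 0.133, 0.0551, 0.287 and 0.342). The groups did not overlap for any of the 10. Each Pax5 KO library was above each Pax5 WT library for 5 genes (32.4% of all genes) and below for 5 (26.7% of all genes). The median of the 10 was -0.60, and that of all genes was 0.06. The share of genes that passed was high here for the whole transcriptome, so the count of 10 by itself says little of these genes.

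**Figure D2:**
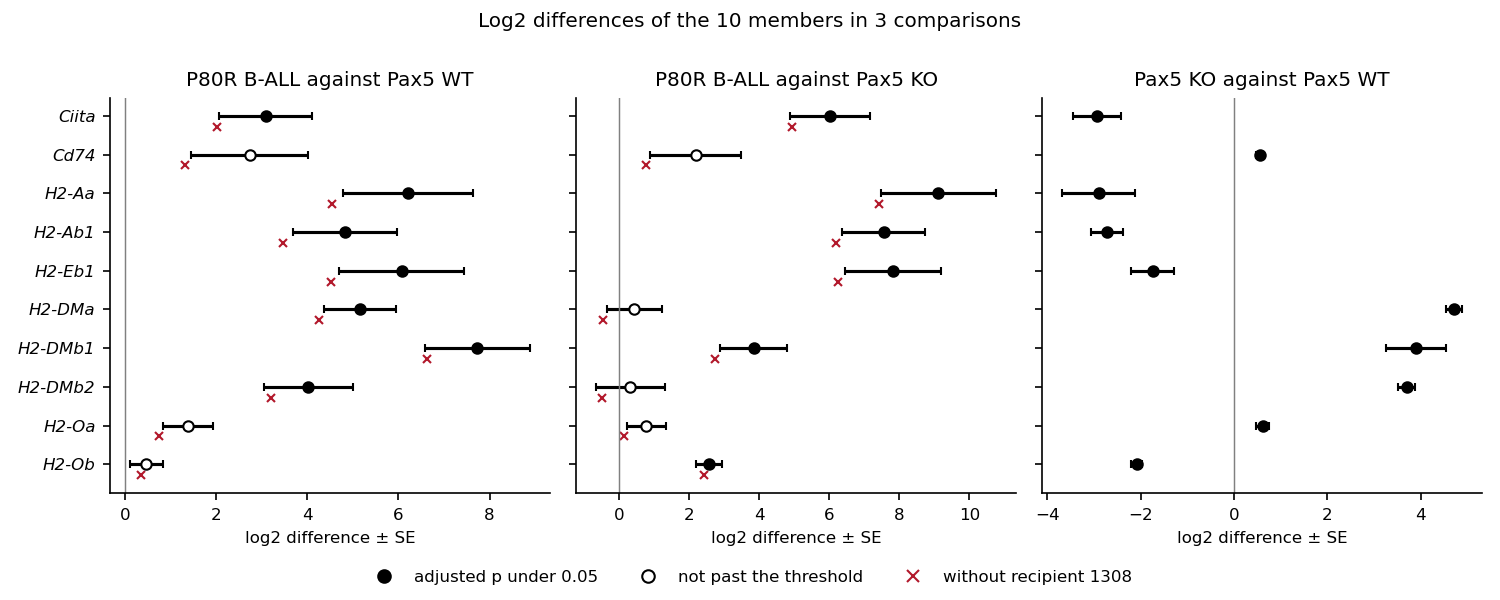
Log2 differences (x axis, ± SE) of the 10 genes (y axis) in each of the 3 comparisons, with filled points for an adjusted p under 0.05 and red crosses for the difference without recipient 1308. Between the fetal groups the genes lie on both sides of 0, from -2.93 for Ciita to 4.71 for H2-DMa, and every cross lies left of its point.

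Ciita (ENSMUSG00000022504) encodes the transactivator on which transcription of the class II genes depends. It was at 34.2, 117, 234 and 1942 in recipients 1300, 1301, 1302 and 1308. In Pax5 KO it was at 7.61, 1.64, 1.71 and 0.722, from 10, 2, 2 and 1 reads. In Pax5 WT it was at 18.9, 29.0, 18.8 and 29.2, from 19 to 34 reads. The 3 groups did not overlap, with the leukaemias highest, Pax5 WT between and Pax5 KO lowest, although recipient 1300 was within 1.43 times the Pax5 WT mean. The difference was 3.09 ± 1.02 against Pax5 WT (limma adjusted p = 0.0366) and 6.02 ± 1.14 against Pax5 KO (limma adjusted p = 0.00433). Pax5 KO differed from Pax5 WT by -2.93 ± 0.52 (limma adjusted p = 0.000371). Without recipient 1308 the difference from Pax5 WT was 2.02 ± 0.64 (limma adjusted p = 0.0327) and that from Pax5 KO was 4.95 ± 0.82 (limma adjusted p = 0.00291). The difference from Pax5 WT did not pass without recipient 1302 (limma adjusted p = 0.0681), without any 1 of Pax5 WT libraries 1, 2, 3 and 4 (limma adjusted p = 0.0883, 0.0738, 0.0885 and 0.0678), or with TMM scaling (limma adjusted p = 0.0652). Ciita shares 329 exon bases with Dexi on the opposite strand, and the kit does not mark strand, so reads there cannot be told apart.

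The I-A and I-E chain genes were lowest in Pax5 KO, higher in Pax5 WT and highest in the leukaemias. H2-Aa (ENSMUSG00000036594), the I-A alpha chain, was at 617, 573, 1499 and 85258 in recipients 1300, 1301, 1302 and 1308. It was at 3.05, 26.3, 3.43 and 0 in Pax5 KO, where 0 reads in library 4 allows up to 3 reads, a scaled count of 2.17. In Pax5 WT it was at 30.2, 32.0, 27.7 and 49.0. Every leukaemia was thus over 10 times each fetal library, while library 2 of Pax5 KO came close to the lowest Pax5 WT library. The difference was 6.22 ± 1.42 against Pax5 WT (limma adjusted p = 0.00859) and 9.11 ± 1.65 against Pax5 KO (limma adjusted p = 0.0038), and Pax5 KO differed from Pax5 WT by -2.89 ± 0.78 (limma adjusted p = 0.00643). Without library 2 of Pax5 KO that fetal difference was -3.74, and without library 4 it was -2.15.

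H2-Ab1 (ENSMUSG00000073421), the I-A beta chain, was at 1249, 1669, 1950.2 and 69641 in recipients 1300, 1301, 1302 and 1308. It was at 9.90, 37.8, 18.9 and 26.0 in Pax5 KO and at 127, 144, 154 and 149.7 in Pax5 WT. Here the 3 groups were well separated, and the recipients other than 1308 lay close together. The difference was 4.83 ± 1.13 against Pax5 WT (limma adjusted p = 0.0096) and 7.56 ± 1.19 against Pax5 KO (limma adjusted p = 0.00211), and Pax5 KO differed from Pax5 WT by -2.72 ± 0.34 (limma adjusted p = 2.24e-05). H2-Eb1 (ENSMUSG00000060586), the I-E beta chain, was at 313, 548, 1208 and 44684 in the same order of recipients. It was at 6.85, 13.1, 5.14 and 4.33 in Pax5 KO and at 20.8, 20.0, 16.8 and 55.0 in Pax5 WT. Again no groups overlapped, with library 4 of Pax5 WT above the rest of its group. The difference was 6.07 ± 1.37 against Pax5 WT (limma adjusted p = 0.00815) and 7.81 ± 1.37 against Pax5 KO (limma adjusted p = 0.00337), and Pax5 KO differed from Pax5 WT by -1.74 ± 0.47 (limma adjusted p = 0.00615).

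The chain genes in recipient 1308 were 56.9 (H2-Aa), 35.7 (H2-Ab1) and 37.0 (H2-Eb1) times the next highest leukaemia. Without that recipient the differences from Pax5 WT were 4.54 ± 0.40 for H2-Aa, 3.47 ± 0.20 for H2-Ab1 and 4.51 ± 0.56 for H2-Eb1, and each still passed (limma adjusted p = 0.000103, 1.63e-05 and 0.000509). The differences from Pax5 KO without it were 7.43 ± 1.01, 6.19 ± 0.44 and 6.25 ± 0.56, which passed as well (limma adjusted p = 0.0013, 9.78e-05 and 0.000236). The mean of the 4 leukaemias is therefore set largely by 1 library, and the direction of these genes is not.

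Marker lists of cells that carry class II were set beside these genes. The macrophage list was higher in every leukaemia than in every fetal library, and the lists of dendritic cells were high in recipient 1308. Between the fetal groups, Pax5 KO had larger sums for the macrophage and conventional dendritic lists, and lower levels of H2-Aa, H2-Ab1 and H2-Eb1. The macrophage list (10 genes, 8 to 10 of them detected in the leukaemias) summed to 102 to 134 CPM in recipients 1300, 1301 and 1302 and to 671 in recipient 1308, against 58.2 to 66.4 in Pax5 KO and 0.203 to 0.913 in Pax5 WT. In Pax5 KO most of this sum was Csf1r (31.9 to 34.1 CPM) and Mrc1 (23.7 to 30.4 CPM). Its place above Pax5 WT therefore rests largely on those genes. C1qa, a complement gene of tissue macrophages, was at 610.1, 877, 483 and 4469.9 in recipients 1300, 1301, 1302 and 1308, at 0 to 1.52 in Pax5 KO and at 0 in Pax5 WT. C1qc, Cd5l and Timd4 were detected in every leukaemia and in no fetal library. Against Pax5 KO, the macrophage genes went both ways in recipients 1300, 1301 and 1302. In these recipients Csf1r was at 141, 372 and 659, below all of Pax5 KO (989 to 1078). Mrc1 was at 606, 469 and 608 there, also below all of Pax5 KO (719 to 962). The list of conventional dendritic cells (11 genes) summed to 30.6 to 55.3 in recipients 1300, 1301 and 1302 and 399 in recipient 1308, against 57.9 to 68.4 in Pax5 KO and 37.7 to 39.7 in Pax5 WT. Outside recipient 1308 much of this sum was Ccr7, so the order of the sums depends on that gene. Ccr7 was at 12.8, 38.0 and 35.6 CPM in recipients 1300, 1301 and 1302, 45.8 to 54.8 in Pax5 KO and 34.1 to 36.6 in Pax5 WT. Genes of this list went both ways in recipients 1300, 1301 and 1302. Clec9a and Cd209a were at 0 in these recipients and at 798 and 1918 in recipient 1308. Itgax was at 1.31, 44.3 and 44.7 in the same recipients, below all of Pax5 KO (82.3 to 109). Naaa was at 343, 365 and 261 there and Cadm1 at 126, 86.1 and 73.2, both above every fetal library. Siglech, a receptor of plasmacytoid dendritic cells, was at 101, 52.9, 325 and 26551 in recipients 1300, 1301, 1302 and 1308, at 1166 to 1224 in Pax5 KO and at 0 in Pax5 WT. The list of mature B cells (7 genes in the table) summed to 288 to 785 in the leukaemias, 304 to 354 in Pax5 KO and 541 to 561 in Pax5 WT. The part of such cells in the class II values was not tested. In these bulk samples, fewer cells of a type and less RNA per cell cannot be told apart.

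**Figure D3:**
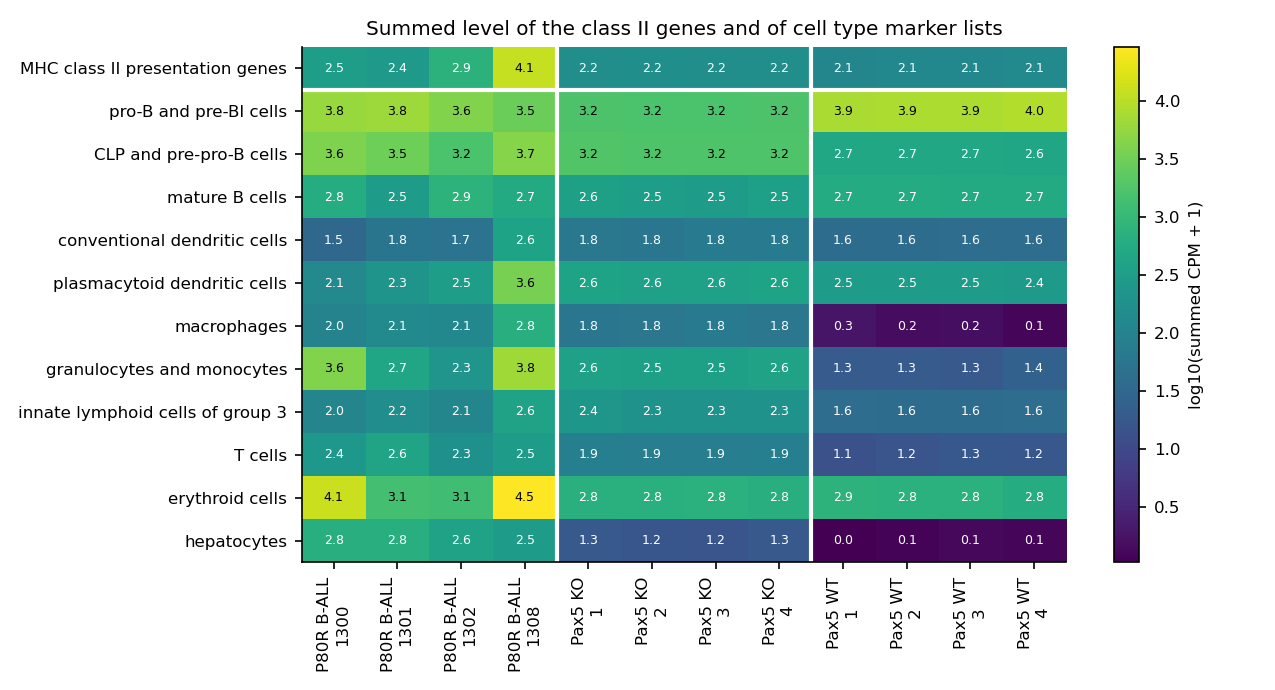
Heat map of log10(summed CPM + 1) in each of the 12 libraries (columns) for the 10 class II presentation genes (top) and 11 cell type marker lists (other lines). Recipient 1308 has the highest summed level of the class II genes (1.17% of its reads) and of the dendritic cell, macrophage, granulocyte and monocyte, and erythroid lists.

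Cd74 (ENSMUSG00000024610), the invariant chain gene, behaved apart from the chains it escorts. It was at 1589.6, 3171, 13139.9 and 207276 in recipients 1300, 1301, 1302 and 1308, at 2224, 2474, 2451 and 2386 in Pax5 KO and at 1463, 1582, 1633 and 1847 in Pax5 WT. Recipient 1300 lay within the Pax5 WT range and below all of Pax5 KO, and the other leukaemias lay above both groups. The difference was 2.73 ± 1.28 against Pax5 WT (limma adjusted p = 0.121) and 2.18 ± 1.29 against Pax5 KO (limma adjusted p = 0.208). Without recipient 1300 the difference from Pax5 WT was 3.66 ± 1.15, which passed (limma adjusted p = 0.037), and without recipient 1308 it was 1.32 ± 0.61 (limma adjusted p = 0.115), and that from Pax5 KO was 0.76 ± 0.60 (limma adjusted p = 0.329). With both left out, 1.99 ± 0.49 against Pax5 WT and 1.44 ± 0.49 against Pax5 KO each passed (limma adjusted p = 0.0168 and 0.0461). Pax5 KO was higher than Pax5 WT by 0.55 ± 0.08 (limma adjusted p = 6.1e-05), in the opposite direction to H2-Aa, H2-Ab1 and H2-Eb1.

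Per kb of transcript, Cd74 was 0.639, 1.02, 2.55 and 0.920 times the sum of H2-Aa, H2-Ab1 and H2-Eb1 in recipients 1300, 1301, 1302 and 1308. This ratio was 28.1 to 105 in Pax5 KO and 6.55 to 7.22 in Pax5 WT. The fetal libraries thus held invariant chain RNA far in excess of chain RNA, and in the leukaemias the ratio lay on both sides of 1, from 0.639 in recipient 1300 to 2.55 in recipient 1302. The summed chain level per kb was 53.9, 61.2, 113 and 4283 CPM in the recipients, 0.493 to 1.96 in Pax5 KO and 4.34 to 5.89 in Pax5 WT. The Cd74 level on the same scale was 34.4, 62.2, 287 and 3940.0 in the recipients, 51.9 to 55.2 in Pax5 KO and 31.3 to 38.6 in Pax5 WT. In recipients 1300 and 1301, then, the ratio was low through the chains and not through Cd74. The Cd74 level was within the Pax5 WT range in recipient 1300 and above every fetal library in recipient 1301.

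**Figure D4:**
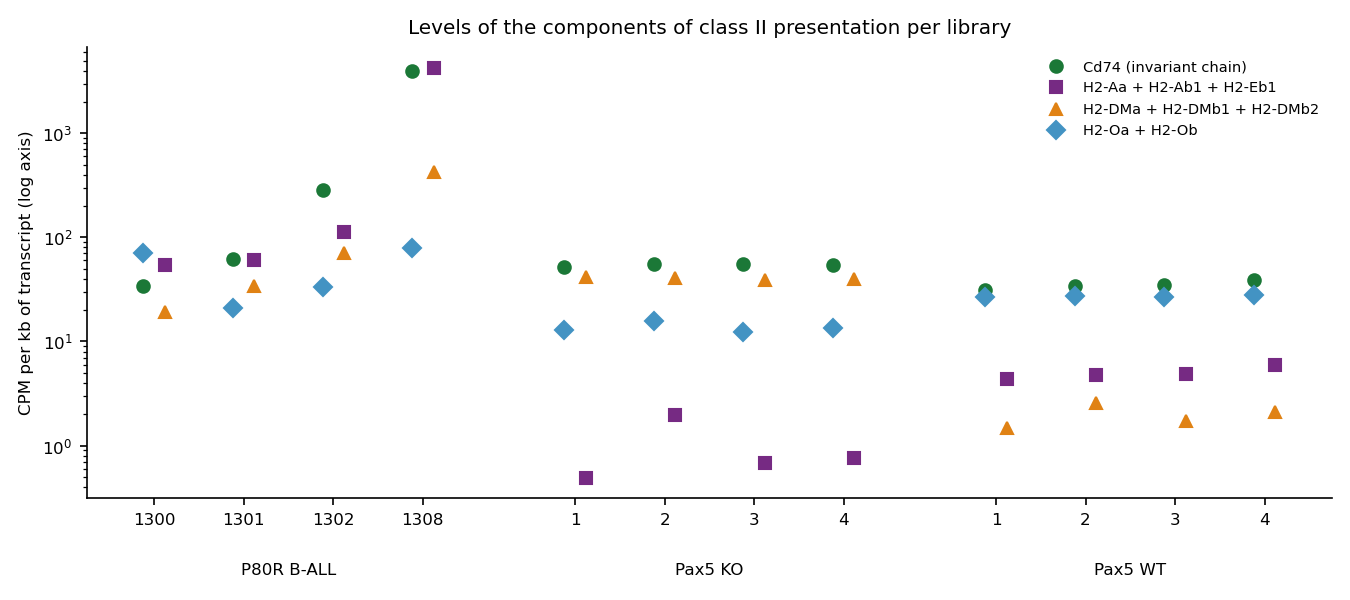
CPM per kb of transcript (log y axis) of Cd74, of the I-A and I-E chain genes summed, of the H2-DM genes summed and of the H2-DO genes summed, in each library (x axis). The chain genes lie below Cd74 in all 8 fetal libraries (ratio of Cd74 to chains 6.55 to 105), and the H2-DM genes lie above the H2-DO genes in every Pax5 KO library and below them in every Pax5 WT library.

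H2-DM, the peptide editor, is made of the H2-DMa alpha chain with the beta chain of H2-DMb1 or H2-DMb2. H2-DMa (ENSMUSG00000037649) was at 652, 948, 1484 and 11898 in recipients 1300, 1301, 1302 and 1308, at 1341, 1386, 1279.8 and 1352 in Pax5 KO and at 34.0, 64.0, 49.4 and 58.5 in Pax5 WT. Every leukaemia and every Pax5 KO library was at least 10 times as high as any Pax5 WT library, and the leukaemias spanned the narrow Pax5 KO range, with 1300 and 1301 below it and 1302 and 1308 above. The difference from Pax5 WT was 5.15 ± 0.79 in the leukaemias (limma adjusted p = 0.0011) and 4.71 ± 0.17 in Pax5 KO (limma adjusted p = 4.08e-10). Between the leukaemias and Pax5 KO it was 0.44 ± 0.78 (limma adjusted p = 0.682), and -0.46 ± 0.25 without recipient 1308. The difference of the leukaemias from Pax5 WT without that recipient was 4.25 ± 0.35 (limma adjusted p = 7.63e-05). H2-DMa shares 360 exon bases with Brd2 on the opposite strand, a gene at 3119.6 to 4832 in the leukaemias, 6931 to 8052 in Pax5 KO and 5363 to 8585 in Pax5 WT, so its level does not follow that of H2-DMa.

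H2-DMb1 (ENSMUSG00000079547) was at 249.8, 388, 600.4 and 8345 in recipients 1300, 1301, 1302 and 1308, at 65.5, 58.3, 60.9 and 47.0 in Pax5 KO and at 5.67, 11.0, 1.98 and 0 in Pax5 WT, where 0 reads in library 4 allows a scaled count of up to 2.58. The groups formed 3 steps with no overlap, highest in the leukaemias and lowest in Pax5 WT. Differences were 7.73 ± 1.15 for the leukaemias against Pax5 WT (limma adjusted p = 0.000821), 3.84 ± 0.95 for the leukaemias against Pax5 KO (limma adjusted p = 0.0134) and 3.90 ± 0.64 for Pax5 KO against Pax5 WT (limma adjusted p = 0.000202). H2-DMb2 (ENSMUSG00000037548) was at 86.8, 561, 1397 and 4037 in the recipients in the same order, at 590.0, 582, 585 and 555 in Pax5 KO and at 34.0, 56.0, 36.6 and 51.6 in Pax5 WT. All leukaemias were above Pax5 WT, though recipient 1300 was nearest to that group and below all of Pax5 KO. Differences were 4.03 ± 0.98 for the leukaemias against Pax5 WT (limma adjusted p = 0.0106), 0.33 ± 0.98 for the leukaemias against Pax5 KO (limma adjusted p = 0.814) and 3.70 ± 0.18 for Pax5 KO against Pax5 WT (limma adjusted p = 3.84e-09). Without recipient 1308 the difference of the leukaemias from Pax5 KO was 2.73 ± 0.34 for H2-DMb1 and -0.50 ± 0.79 for H2-DMb2. Against Pax5 WT it was then 6.63 ± 0.84 for H2-DMb1 and 3.20 ± 0.81 for H2-DMb2 (limma adjusted p = 0.000546 and 0.014).

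The balance between the beta chain genes differed among the leukaemias. Per kb, H2-DMb1 was at 5.43, 7.63, 13.2 and 159 CPM in recipients 1300, 1301, 1302 and 1308, and H2-DMb2 was at 1.86, 10.9, 30.3 and 76.0. H2-DMb1 was the higher in recipients 1300 and 1308 and H2-DMb2 in recipients 1301 and 1302. In Pax5 KO H2-DMb2 was the higher in all libraries (12.4 to 13.6 per kb, against 1.06 to 1.54 for H2-DMb1), as it was in Pax5 WT (0.721 to 1.18 per kb, against 0 to 0.236). The genes share 369 identical windows of 50 bases, 22.6% of those of H2-DMb1 and 21.2% of those of H2-DMb2, so the split of reads between them is uncertain.

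H2-DO, the brake on H2-DM, is a dimer of H2-Oa and H2-Ob. H2-Oa (ENSMUSG00000024334) was at 323, 249, 320.1 and 1760.3 in recipients 1300, 1301, 1302 and 1308, at 225, 309, 253 and 299 in Pax5 KO and at 159, 185, 177 and 179.8 in Pax5 WT. All leukaemias were above Pax5 WT, and recipient 1301 lay within the Pax5 KO range. The difference of the leukaemias was 1.40 ± 0.55 against Pax5 WT (limma adjusted p = 0.0677) and 0.77 ± 0.56 against Pax5 KO (limma adjusted p = 0.298). Without recipient 1308 the difference from Pax5 WT was 0.75 ± 0.21, which passed (limma adjusted p = 0.0217), as did 1.69 ± 0.57 without recipient 1301 (limma adjusted p = 0.0457). Against Pax5 KO it was 0.13 ± 0.21 without recipient 1308. Pax5 KO was higher than Pax5 WT by 0.62 ± 0.14 (limma adjusted p = 0.00181).

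H2-Ob (ENSMUSG00000041538) was the 1 member of the 10 for which recipient 1308 was not the highest. It was at 5402, 1400.4, 2120.1 and 3549.6 in recipients 1300, 1301, 1302 and 1308, at 484, 579, 423 and 394 in Pax5 KO and at 1954, 1948, 1922 and 2092 in Pax5 WT. The leukaemias lay on both sides of the Pax5 WT range and were all above Pax5 KO. The difference of the leukaemias was 0.47 ± 0.36 against Pax5 WT (limma adjusted p = 0.313) and 2.56 ± 0.38 against Pax5 KO (limma adjusted p = 0.00146), and Pax5 KO differed from Pax5 WT by -2.09 ± 0.11 (limma adjusted p = 9.63e-09). Without recipient 1308 the differences of the leukaemias were 0.35 ± 0.39 against Pax5 WT and 2.44 ± 0.41 against Pax5 KO (limma adjusted p = 0.49 and 0.00315). With recipients 1300 and 1308 left out, the difference from Pax5 WT was -0.20 ± 0.17 (limma adjusted p = 0.388).

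The ratio of the summed H2-DM genes to the summed H2-DO genes, per kb, was 0.272, 1.65, 2.12 and 5.41 in recipients 1300, 1301, 1302 and 1308. It was 2.57 to 3.27 in Pax5 KO and 0.0552 to 0.0954 in Pax5 WT. By these sums, every Pax5 KO library and every leukaemia except recipient 1300 held more editor than brake RNA. Every Pax5 WT library held more brake than editor RNA. Recipient 1300, with the highest H2-Ob and the lowest H2-DMa, H2-DMb1 and H2-DMb2 of the leukaemias, lay between Pax5 WT and the rest. For the alpha chain genes alone, H2-DMa was 1.32, 2.50, 3.04 and 4.44 times H2-Oa per kb in recipients 1300, 1301, 1302 and 1308. That ratio was 2.94 to 3.90 in Pax5 KO and 0.141 to 0.227 in Pax5 WT. The exception of recipient 1300 thus holds for the sums and not for the alpha chain genes.

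Among the leukaemias the order of levels was 1308, 1302, 1301 and 1300 from high to low in 7 of the 10 genes: Ciita, Cd74, H2-Ab1, H2-Eb1, H2-DMa, H2-DMb1 and H2-DMb2. In H2-Aa recipients 1300 and 1301 changed places. Recipient 1308 was 8.28 times the next recipient for Ciita, 15.8 times for Cd74, 8.02 times for H2-DMa, 13.9 times for H2-DMb1, 2.89 times for H2-DMb2 and 5.44 times for H2-Oa. Recipients 1302 and 1308 were above all Pax5 WT and all Pax5 KO libraries for all 10 genes. Recipient 1300 was above all Pax5 WT libraries for 9 and above all Pax5 KO libraries for 7, and so was recipient 1301. Libraries of recipients are single tumours, so differences between them have no replicate check.

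The other genes of the pathway were taken from lists, and their counts are over the genes tested. To set beside all list counts, 21.0% of all genes were higher and 18.9% lower in the leukaemias against Pax5 WT. The shares were 17.6% and 20.8% against Pax5 KO, and 35.7% and 29.1% for Pax5 KO against Pax5 WT. Of the factors that bind the class II promoters or work with Ciita (11 genes), about as many passed as among all genes (39.9%, 38.4% and 64.8%). In the leukaemias 0 rose and 4 fell against Pax5 WT (3 fell without recipient 1308), 1 rose and 2 fell against Pax5 KO, and in Pax5 KO 1 rose and 5 fell against Pax5 WT. Smarca4, the ATPase of the BAF remodelling complex, was at 2910.3 to 7549 in the leukaemias, 9929 to 10269 in Pax5 KO and 20849 to 29107 in Pax5 WT, a difference of -2.58 ± 0.27 for the leukaemias against Pax5 WT (limma adjusted p = 0.000145). Nfyc, an NF-Y subunit, was at 1213 to 1773 in the leukaemias, 2084 to 2153 in Pax5 KO and 2915 to 3132 in Pax5 WT, with a difference of -1.01 ± 0.16 for the leukaemias against Pax5 WT (limma adjusted p = 0.000948). Rfxap, an RFX subunit, was at 721 to 1084 in the leukaemias and 1365 to 1692 in Pax5 WT (difference -0.67 ± 0.17, limma adjusted p = 0.0111). The median difference of the list was -0.23, -0.19 and -0.20 in the 3 comparisons in the same order. The gene that rose against Pax5 KO was Nfyb, another NF-Y subunit, with a difference of 0.61 ± 0.12 (limma adjusted p = 0.00445).

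Regulators of Ciita transcription (10 genes) moved both ways. Against Pax5 WT, 3 rose and 4 fell in the leukaemias (3 rose and 5 fell without recipient 1308). Against Pax5 KO, 5 rose and 1 fell in the leukaemias (5 rose and 3 fell without recipient 1308), and in Pax5 KO 3 rose and 6 fell against Pax5 WT. Irf1, a transcription factor induced by interferon, was at 1816, 3645, 2407 and 5544 in recipients 1300, 1301, 1302 and 1308 and at 767 to 867 in Pax5 WT (difference 1.94 ± 0.30, limma adjusted p = 0.00106). Tcf3, which encodes the E2A proteins, was at 3847 to 5409 in the leukaemias, 7937 to 8439.6 in Pax5 KO and 23515 to 26603 in Pax5 WT (difference of the leukaemias from Pax5 WT -2.57 ± 0.14, limma adjusted p = 8.8e-06). Prdm1, the plasma cell factor Blimp-1 that represses Ciita, was at 36.8, 18.5, 44.7 and 66.4 in recipients 1300, 1301, 1302 and 1308, at 0, 0, 4.29 and 0 in Pax5 KO and at 0 to 20.0 in Pax5 WT. Its difference between the leukaemias and Pax5 KO was 4.68 ± 0.77 (limma adjusted p = 0.00242). Bach2, a repressor of B-cell maturation, was at 380.3 to 1964 in the leukaemias and 5793 to 7310.1 in Pax5 WT (difference -2.85 ± 0.41, limma adjusted p = 0.000771). Irf8, a factor of B cells and dendritic cells, did not pass in the leukaemias and was named after its values were seen: it was at 2735, 3599.5, 2538 and 106755 in recipients 1300, 1301, 1302 and 1308 and at 7590.5 to 8632 in Pax5 WT.

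Genes of interferon-gamma signalling (14 genes), the main inducer of class II outside professional presenting cells, were higher in the leukaemias. Against Pax5 WT 10 rose and 0 fell, with a median difference of 2.06, and against Pax5 KO 8 rose and 0 fell, with a median of 1.45. Without recipient 1308 the counts were 10 rose and 1 fell, and 7 rose and 1 fell. In Pax5 KO 10 rose and 2 fell against Pax5 WT, with a median of 0.67. The GTPase gene Igtp was at 1641, 4164, 3964 and 3638 in recipients 1300, 1301, 1302 and 1308, at 1006 to 1169 in Pax5 KO and at 369 to 435 in Pax5 WT. Its difference was 2.98 ± 0.28 for the leukaemias against Pax5 WT (limma adjusted p = 8.91e-05). Ifngr1, a chain of the interferon-gamma receptor, was at 7597 to 23050.5 in the leukaemias, 5190.0 to 5409 in Pax5 KO and 2244 to 2543 in Pax5 WT (difference of the leukaemias from Pax5 WT 2.62 ± 0.31, limma adjusted p = 0.000244). The chemokine gene Cxcl9 was at 18.4, 162, 105 and 1789 in recipients 1300, 1301, 1302 and 1308 and at 0 in all 8 fetal libraries, so that the mean was at least 219-fold higher than in Pax5 KO at a floor of 3 reads per library, and at least 40.2-fold higher without recipient 1308. Gbp2 was at 684 to 3141 in the leukaemias and 146 to 183 in Pax5 KO (difference 3.42 ± 0.43, limma adjusted p = 0.000737). Recipient 1308, the highest for Ciita and Cxcl9, was the lowest of the leukaemias for Ifngr1 and was not the highest for Igtp or Gbp2, while recipient 1300 was the lowest for Cxcl9, Igtp, Gbp2 and Ciita.

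Endosomal proteases and the thiol reductase gene Ifi30 (10 genes) include those that trim the invariant chain. Against Pax5 WT 5 rose and 0 fell in the leukaemias (6 rose without recipient 1308), and against Pax5 KO 3 rose and 0 fell (5 rose and 1 fell without recipient 1308). In Pax5 KO 5 rose and 3 fell against Pax5 WT. Ctss, the cathepsin that makes the last cuts in B cells and dendritic cells, was at 3946, 6183, 6463 and 31059.6 in recipients 1300, 1301, 1302 and 1308 and at 2183 to 2453 in Pax5 KO. Its difference was 1.83 ± 0.55 (limma adjusted p = 0.0286), and it did not pass without any 1 of Pax5 KO libraries 1, 2, 3 and 4 (limma adjusted p = 0.0678, 0.0661, 0.0652 and 0.0651). Without recipient 1308 it was 1.20 ± 0.18 (limma adjusted p = 0.00195). Ctsh was at 295, 484, 1071 and 50349 in recipients 1300, 1301, 1302 and 1308, at 28.3 to 52.6 in Pax5 KO and at 5.93 to 33.5 in Pax5 WT (difference of the leukaemias from Pax5 WT 6.41 ± 1.47, limma adjusted p = 0.00858, and 4.77 ± 0.66 without recipient 1308, limma adjusted p = 0.000848). Lgmn, an asparagine endopeptidase, was at 4377 to 10399.9 in the leukaemias, 3572 to 3876 in Pax5 KO and 1036 to 1332 in Pax5 WT (difference of the leukaemias from Pax5 WT 2.47 ± 0.24, limma adjusted p = 0.000101). Ctsl, which does the cutting in thymic epithelium, was at 1315 to 1661 in Pax5 KO and 67.0 to 93.9 in Pax5 WT (difference 4.22 ± 0.13, limma adjusted p = 6.38e-11).

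**Figure D5:**
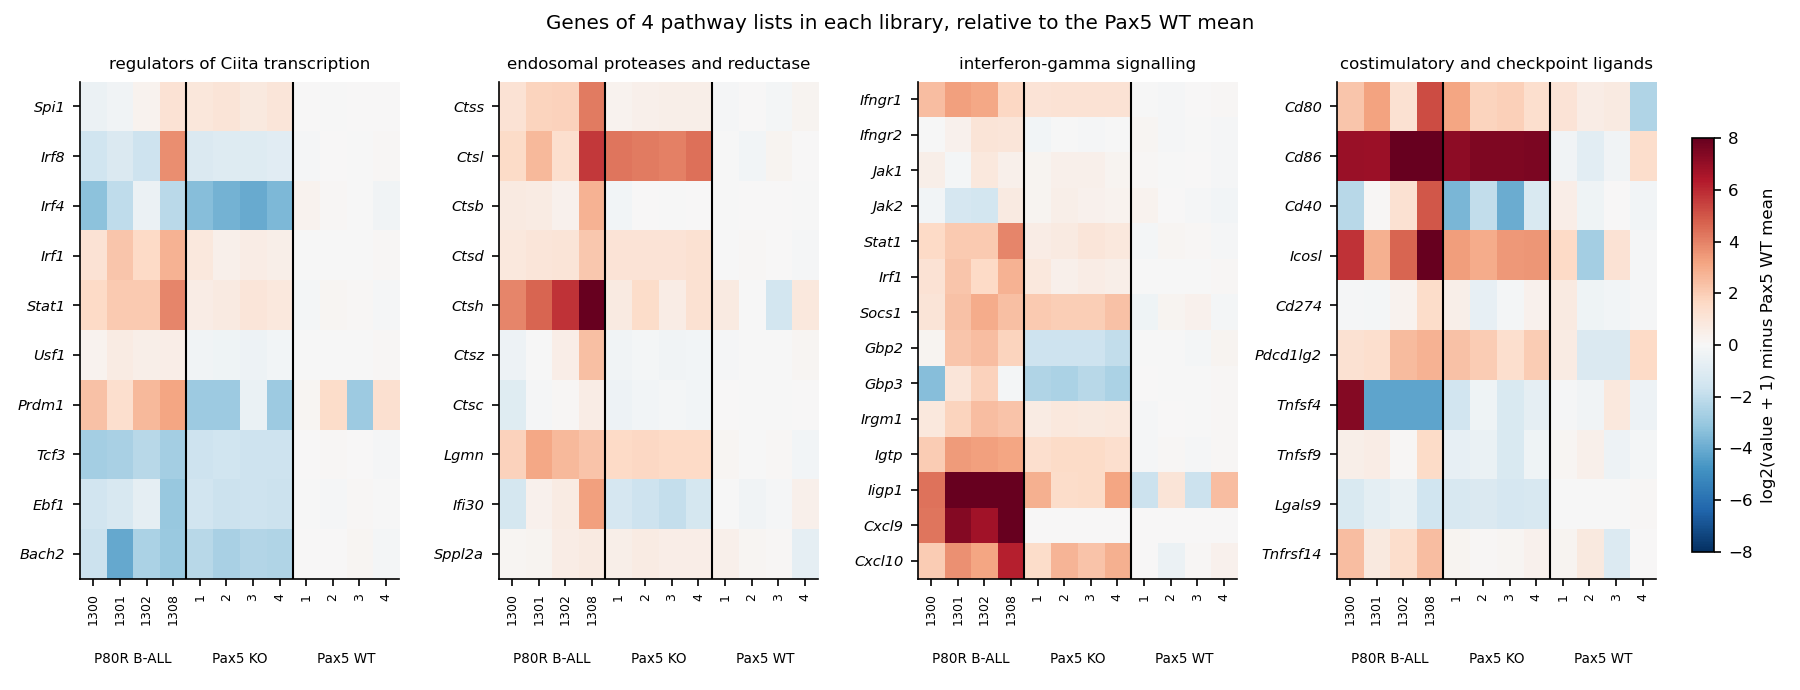
Heat maps of log2(scaled read count + 1) minus the Pax5 WT mean for the genes of 4 lists (vertical) in the 12 libraries (horizontal), red for higher and blue for lower than the Pax5 WT mean, with colours ending at 8 in both directions. Interferon-gamma genes such as Igtp and Ifngr1 are red in all 4 leukaemias, Tcf3 and Bach2 are blue in the leukaemias and in Pax5 KO, and Cd86 is red in both.

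Genes for moving and removing class II (12 symbols listed, 10 tested) passed the test in 3 of 10 cases for the leukaemias against Pax5 WT and 4 of 10 against Pax5 KO, near the shares of all genes (39.9% and 38.4%), and in 3 of 10 for Pax5 KO against Pax5 WT, below the 64.8% of all genes. In the leukaemias 1 rose and 2 fell against Pax5 WT and 1 rose and 3 fell against Pax5 KO (4 fell without recipient 1308), and in Pax5 KO 3 rose and 0 fell against Pax5 WT. Cd83, which keeps class II at the surface by holding back the ubiquitin ligase of March1, was at 97.3, 106, 40.9 and 638 in recipients 1300, 1301, 1302 and 1308 and at 1.72 to 24.6 in Pax5 WT. Its difference was 3.47 ± 0.95 (limma adjusted p = 0.0165), or 2.7 ± 0.81 without recipient 1308 (limma adjusted p = 0.027). Without recipients 1300 and 1308 it was 2.52 and did not pass (limma adjusted p = 0.069). The ligase gene March8 was at 461 to 555 in Pax5 KO and 151 to 221 in Pax5 WT (difference 1.51 ± 0.14, limma adjusted p = 1.74e-06), and it did not pass with all 12 libraries in the fit (limma adjusted p = 0.152). Of the partners of surface CD74 (5 genes, 4 tested), 2 rose and 1 fell in the leukaemias against Pax5 WT and 1 rose and 0 fell against Pax5 KO (2 and 1 fell without recipient 1308), and in Pax5 KO 1 rose and 2 fell against Pax5 WT. Mif, its ligand, was at 6511 to 15292 in the leukaemias, 8402 to 9334 in Pax5 KO and 19050.0 to 23800.0 in Pax5 WT (difference of the leukaemias from Pax5 WT -1.16 ± 0.25, limma adjusted p = 0.00611). The co-receptor gene Cxcr4 was at 2973 to 4692 in the leukaemias and 763 to 942 in Pax5 KO (difference 2.12 ± 0.17, limma adjusted p = 0.000113).

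Ligands that act beside class II on T cells (10 genes) were mixed. Against Pax5 WT 4 rose and 1 fell in the leukaemias (2 rose and 1 fell without recipient 1308), against Pax5 KO 2 rose and 0 fell, and in Pax5 KO 4 rose and 3 fell against Pax5 WT. Cd86, a ligand of CD28, was at 434, 402, 908 and 1226 in recipients 1300, 1301, 1302 and 1308, at 512 to 672 in Pax5 KO and at 1.00 to 8.60 in Pax5 WT. The difference from Pax5 WT was 7.54 ± 0.62 in the leukaemias (limma adjusted p = 3.94e-05) and 7.41 ± 0.41 in Pax5 KO (limma adjusted p = 1.52e-08). Its levels in these 2 groups overlapped, as those of H2-DMa and H2-DMb2 did. Cd40, a receptor for T-cell help, was at 7.89, 43.1, 95.5 and 1331 in recipients 1300, 1301, 1302 and 1308, at 1.71 to 17.3 in Pax5 KO and at 32.0 to 58.6 in Pax5 WT. Its difference between Pax5 KO and Pax5 WT was -2.69 ± 0.58 (limma adjusted p = 0.00149), which did not pass with all 12 libraries in the fit (limma adjusted p = 0.0996).

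The neighbours of these genes in the class II region and the class I pathway were set beside them. Of 7 other class II region genes tested, 6 rose and 1 fell in the leukaemias against Pax5 WT, and 6 rose and 1 fell against Pax5 KO, with the same counts without recipient 1308. In Pax5 KO 2 rose and 0 fell against Pax5 WT. H2-Eb2, a further class II beta chain gene, was at 177, 367, 502 and 411 in recipients 1300, 1301, 1302 and 1308, at 3.29 to 7.61 in Pax5 KO and at 6.00 to 23.7 in Pax5 WT. Its difference was 4.81 ± 0.52 for the leukaemias against Pax5 WT (limma adjusted p = 0.00016), and unlike H2-Eb1 it was not raised further in recipient 1308. Of the 13 class I presentation genes, 9 rose and 0 fell in the leukaemias against Pax5 WT and 8 rose and 0 fell against Pax5 KO, with the same counts without recipient 1308, and in Pax5 KO 8 rose and 1 fell against Pax5 WT. H2-K1, a class I heavy chain gene, was at 47612, 43567, 42303 and 86718 in recipients 1300, 1301, 1302 and 1308, at 15321 to 16344 in Pax5 KO and at 9482 to 10941 in Pax5 WT (difference of the leukaemias from Pax5 WT 2.41 ± 0.22, limma adjusted p = 7.25e-05). The ratio of the highest to the lowest leukaemia was 1.61 (Pdia3) to 4.62 (Tapbp) over the 13 class I genes and 3.86 (H2-Ob) to 149 (H2-Aa) over the 10 class II presentation genes, and it was 2.83 for H2-Eb2, so the ranges overlapped at their ends. The lists share Tap1, Tap2, Psmb8 and Psmb9.

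The genes whose pattern was most like Cd74 and the chain genes together were sought by the root mean square difference of standardised log2 values over the 12 libraries, against the mean of Cd74, H2-Aa, H2-Ab1 and H2-Eb1. The nearest were Tor2a (0.254 SD), Trim30a (0.256 SD), Serpinb6a (0.260 SD), Nfe2l2 (0.263 SD), Trim12a (0.268 SD), Aldh3b1 (0.273 SD), Trim12c (0.276 SD) and Rab19 (0.288 SD). Aldh3b1 was at 210.4, 263, 515 and 4975 in recipients 1300, 1301, 1302 and 1308, 116 to 139 in Pax5 KO and 136 to 153 in Pax5 WT. Trim30a was at 1967, 4179, 4026 and 10232 in the recipients, 1297 to 1348 in Pax5 KO and 1409.8 to 1611 in Pax5 WT. Nearest to Ciita were Plpp2 (0.294 SD), Stk38l (0.329 SD), Pkig (0.348 SD), Commd9 (0.354 SD) and Serinc3 (0.360 SD). Plpp2 was at 349.7, 719, 661 and 1090.5 in the recipients, 133 to 157 in Pax5 KO and 248 to 313 in Pax5 WT. The likeness is of shape only, since values were standardised, and the high value of recipient 1308 is part of it.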

How the data were processed

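The 12 RNA-seq libraries came from sorted cells, with cDNA made by SMART-Seq v4, per the labels' protocols. The submitters' processing notes name mm39, fastp, STAR 2.7.8a and featureCounts. The sources used here do not give the annotation, the strand setting or how reads with several matches were counted. The deposited values (a signal, scaled read counts) were whole multiples of the smallest value of each library in 100% of cases (tolerance 0.001), so the authors had scaled the counts by 1 factor per library, 0.722 to 1.38. On the whole reads recovered from them, edgeR called 4785 genes between the leukaemias and Pax5 WT (limma 4873), 4352 between the leukaemias and Pax5 KO (limma 4683) and 7890 between the fetal groups (limma 7901).

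Symbols came from GENCODE M21 for 21780 of 21885 IDs, and transcript lengths from its principal transcripts. The members and all lists were chosen with earlier results of these data known. The test was limma 3.58.1 (R 4.3.3; trend, robust, two-sided) on log2(value + 1), fitted to the 8 libraries of each comparison, on genes that reached 10 in 4 or more libraries, with Benjamini-Hochberg adjustment over 12200 genes. Separate fits were used because the spread differed between groups. The fits were tested on simulated data, where all comparisons, those with the leukaemias most, made more false calls than the threshold allows. Named genes are all members, Pax5, up to 3 tested genes per list and comparison with the smallest adjusted p, and the 8 and 5 genes nearest in pattern. Alternatives were 12 libraries in 1 fit, pseudocounts of 0.5 and 8, no filter or one at 50, TMM scaling, edgeR 4.0.16 and DESeq2 1.42.0 on recovered reads, weights per group, a replicate block, each library left out, and, added after the data were seen, recipients 1300 and 1308 left out. No 2 libraries of a group agreed within counting noise, so none was counted as 1 library deposited in duplicate; this does not tell biological from technical replicates. Same-numbered Pax5 KO and Pax5 WT libraries are not stated to be paired.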

Additional observations from a re-analysis of the deposited data

Results flagged for a closer look

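Single libraries stood apart from the other 3 of their group, by the gap to the nearest library over the group's range, in 11 of the 30 gene and group combinations looked at. Chance gives about 1 in 20 for independent, normally spread values. Scaled counts of genes that move together are not such values, so that rate is no measure of an excess here. In the P80R B-ALL group, recipient 1308 was the high one for 8 genes, with scaled counts of 1942 for Ciita, 207276 for Cd74, 85258 for H2-Aa, 69641 for H2-Ab1, 44684 for H2-Eb1, 11898 for H2-DMa, 8345 for H2-DMb1 and 1760.3 for H2-Oa. On the log2 scale 2 of the 10 genes stood apart in that group, and 0 in each fetal group. In Pax5 KO, library 1 was high for Ciita (7.61, from 10 reads) and library 2 for H2-Aa (26.3, from 32 reads). In Pax5 WT, library 4 was high for H2-Eb1 (55.0, from 64 reads).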

How the results depend on the processing

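The 10 genes were tested again under each alternative. The number past the threshold was 6 to 9 for P80R B-ALL against Pax5 WT and 5 to 7 for P80R B-ALL against Pax5 KO, except with DESeq2, where it was 2 in each of them because 7 genes were given no adjusted p. With 1 library left out at a time it was 6 to 8 and 6. For Pax5 KO against Pax5 WT it was 9 or 10, except with all 12 libraries in the fit, where it was 5 (3 higher, 2 lower). The cause was not tested. With the replicate block it was 10, and 7987 of all genes passed, against 7901 without it. Same-numbered libraries had deviations correlated at 0.00493 to 0.0616, and libraries of different number at -0.0627 to 0.0355. Correlations this small do not decide whether the numbers pair the libraries. Directions turned in 4 cases, all among genes that had not passed: for H2-Ob against Pax5 WT (-0.20) and H2-DMa against Pax5 KO (-0.18) with recipients 1300 and 1308 left out, and for H2-DMa (-0.46 to 0.93) and H2-DMb2 (-0.50 to 1.34) against Pax5 KO with 1 library left out, both without recipient 1308. Ciita against Pax5 WT did not pass in 7 of 17 alternatives (adjusted p up to 0.0885), Cd74 passed in 4 of 17, and H2-Oa passed in 6 of 17. For P80R B-ALL against Pax5 KO the calls over all genes were 2519 higher and 1833 lower with edgeR and 2947 and 2188 with DESeq2, against 2151 and 2532, and the median difference of all genes was 0.06 and 0.08, against -0.11. Without library 3 of Pax5 KO 3118 genes passed there, against 4683. For Pax5 KO against Pax5 WT, 4193 passed with all 12 libraries in the fit. No gene named from the lists turned direction, and 59 of 1376 of their retests no longer passed. Low counts limit Ciita, H2-Aa and H2-Eb1 in Pax5 KO and H2-DMb1 in Pax5 WT.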
